A study of Mus musculus with 6 samples.

Results

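The ISG15 conjugation system was followed in RENCA cells, a mouse renal adenocarcinoma line, through 5 genes chosen by symbol: the modifier Isg15, its activating enzyme Uba7, its conjugating enzyme Ube2l6, its ligase Herc6 and its protease Usp18. They were 5 of the 78298 genes in the deposited table, and all 5 passed the low-count filter that left 15522 genes for testing. The oe-AQP1 cells (3 samples) carried a lentivirus that expressed mouse Aqp1, a water channel, from a constitutive promoter, and the oe-NC cells (3 samples) carried the empty control vector. Both groups were RENCA cells that had been transduced for 48 h, held in puromycin at 2 μg/mL for 14 days as stably transduced populations, and given no other chemical. Neither untransduced cells nor another transgene formed a group, and the labels place all 6 samples in 1 batch, so that Aqp1 and any other difference between the 2 stable populations cannot be told apart.

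ISG15 is a small protein made of a pair of ubiquitin-like domains, and its gene is among those that type I interferon induces most strongly. It is attached to lysines of target proteins by a chain of enzymes that parallels ubiquitination: UBA7 activates it, UBE2L6 (also called UBCH8) receives it, and a HERC ligase transfers it, which in the mouse is HERC6. USP18 removes it again and also holds back signaling from the type I interferon receptor, to which it is brought by STAT2. Free ISG15 can be secreted and act on leukocytes through the integrin LFA-1.

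All 5 genes were higher in oe-AQP1 than in oe-NC cells, by 3.35-fold for Usp18 up to 16.1-fold for Ube2l6, and all 5 passed the limma-voom test at an FDR under 0.05 with a log2 fold change (log2FC) above 1. Among all genes tested, 4.39% passed in that direction. In each of the 5 genes every oe-AQP1 sample lay above every oe-NC sample in CPM, the counts scaled to a fixed total per library, which held for 23.5% of the genes tested. The median log2FC over all genes tested was 0.00234 and that of the 5 genes was 2.14. The fold differences were unequal: the log2FC was 4.01 for Ube2l6, 2.17 for Herc6, 2.14 for Uba7, 1.76 for Isg15 and 1.74 for Usp18.

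**Figure D1:**
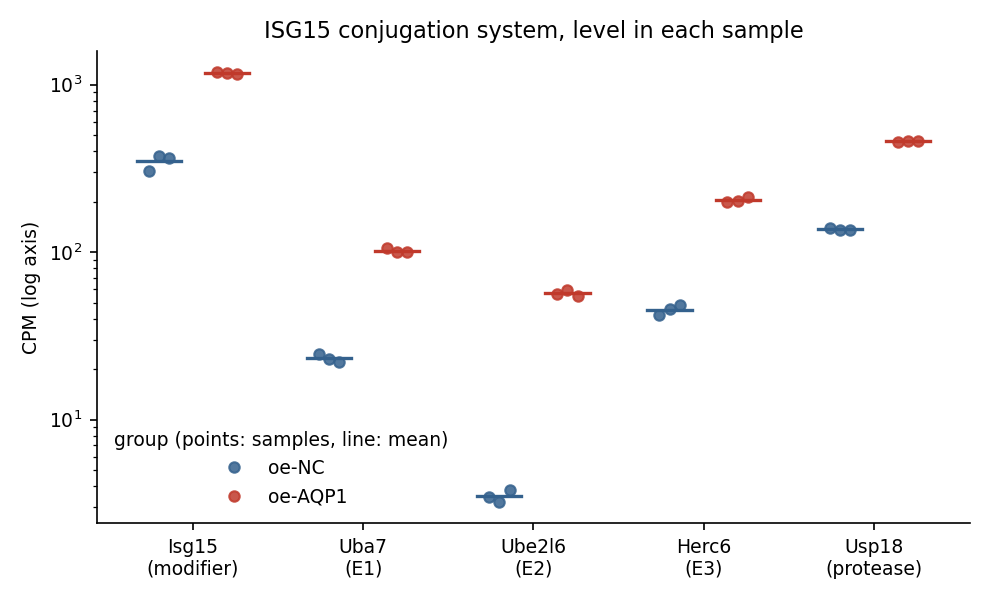
CPM (log axis) of the 5 genes of the ISG15 system in each of the 6 samples, with points for samples and lines for group means. In every gene the 3 oe-AQP1 samples sit above the 3 oe-NC samples, and the gap is widest for Ube2l6, at 55.0 to 59.1 against 3.23 to 3.80 CPM.

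Library totals were 19758518 to 21920899 expected counts in the oe-AQP1 samples and 18385714 to 21396274 in the controls. The Aqp1 counts of 7713 to 8545 in the oe-AQP1 samples stood against 25 to 45 in the controls (log2FC 7.70, SE 0.16), in accord with the labels. Before any result, oe-NC sample 1 has to be named: its counts differed from those of the other two oe-NC samples by a chi-square of 9.81 and 11.4 per gene, while all other pairs within a group lay between 1.71 and 2.04. Nothing in the labels says that the samples of a group came from separate transductions, so p-values here measure the spread between these samples. Of 13 renal epithelial markers, 11 were tested, with Pax8 at 157 to 170 CPM in oe-AQP1 and 166 to 179 CPM in oe-NC, and Epcam and Cdh6 were at 0 in all samples. Several of the others were lower in oe-AQP1 without overlap, such as Cdh16 (109 to 110 against 162 to 179 CPM), Lrp2 (14.7 to 17.3 against 27.95 to 31.48 CPM) and Krt8 (297 to 302 against 377 to 418 CPM). Vim, in the same list but treated by the study as a mesenchymal marker, was lower too (658 to 683 against 844 to 951 CPM). The part of these markers in the results was not tested. Of the leukocyte markers, Adgre1, Tyrobp, Siglech and Xcr1 were at 0 in all samples and Ptprc had at most 3 counts, whereas 4 of the 9 myeloid markers had enough counts to be tested. The summed level of 9 myeloid markers was 52.1 to 55.7 CPM in oe-AQP1 and 59.6 to 63.6 CPM in oe-NC. Cd68, its largest part, was higher in oe-AQP1 (32.5 to 35.5 against 29.5 to 31.3 CPM), while Csf1r (2.81 to 3.69 against 8.75 to 9.95 CPM) and Lyz2 (11.7 to 12.2 against 16.9 to 17.03 CPM) were lower. The summed level of 5 fibroblast markers was 12.6 to 13.9 against 18.04 to 26.38 CPM, carried by Col1a1. The summed levels of 9 lymphocyte markers (0.821 to 1.27 against 0.979 to 1.59 CPM), 5 dendritic cell markers (0.202 to 0.411 against 0.101 to 0.187 CPM) and 4 endothelial markers (1.01 to 1.73 against 0.925 to 1.45 CPM) were low in both groups. Because these were bulk samples, more cells making a transcript and more transcript per cell cannot be told apart.

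The sequences just upstream of the modifier, its E1 and its E2 are shown because interferon-stimulated genes are classically controlled through an element of their promoters, the ISRE, which the ISGF3 complex binds. RefSeq start-site windows (GRCm38.p6) were at hand for 4 of the 5 genes, all but Usp18. Printed 5′ to 3′ on the gene's strand are the 250 bases before the start of Isg15 (chr4:156200819-156201068, minus strand), Uba7 (chr9:107975317-107975566, plus strand) and Ube2l6 (chr2:84798578-84798827, plus strand), and capitals mark each match to the ISRE letters GAAANNGAAA or to the shorter IRF core AANNGAAA, which lies within the ISRE.
Isg15: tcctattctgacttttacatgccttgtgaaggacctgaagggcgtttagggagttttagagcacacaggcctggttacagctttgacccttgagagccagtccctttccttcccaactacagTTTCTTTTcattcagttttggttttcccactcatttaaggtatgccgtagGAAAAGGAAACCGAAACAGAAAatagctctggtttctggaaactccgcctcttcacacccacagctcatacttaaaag
Uba7: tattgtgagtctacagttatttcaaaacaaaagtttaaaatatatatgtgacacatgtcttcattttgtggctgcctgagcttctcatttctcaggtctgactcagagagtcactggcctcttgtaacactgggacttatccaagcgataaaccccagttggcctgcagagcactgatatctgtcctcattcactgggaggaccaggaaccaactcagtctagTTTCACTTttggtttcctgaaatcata
Ube2l6: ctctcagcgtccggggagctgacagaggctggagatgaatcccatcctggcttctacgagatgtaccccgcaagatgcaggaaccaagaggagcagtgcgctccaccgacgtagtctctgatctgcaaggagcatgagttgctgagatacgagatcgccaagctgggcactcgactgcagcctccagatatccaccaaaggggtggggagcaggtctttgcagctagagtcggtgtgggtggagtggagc
Isg15 held 3 overlapping ISRE matches, from -78 to -69, from -72 to -63 and from -66 to -57 counted back from the start, and a separate IRF core on the other strand from -128 to -121. Uba7 held a single IRF core on the other strand, from -27 to -20, and no ISRE match. In Ube2l6 and Herc6 (chr6:57580742-57580991, plus strand) no match was found to any of the letters searched, and the GAS letters TTCNNNGAA were found in none of the 4. The search took both strands from 250 bases before to 50 after the start. Over 32851 such windows of 27025 genes, 3.443% held the ISRE letters, 23.92% the IRF core and 8.298% the GAS letters. Only these windows and these exact letters were searched, so matches at other starts or farther away were not sought. Whether the letters go with the size of the fold change was not tested.

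Isg15 (ENSMUSG00000035692, on GRCm39 chr4:156283883-156285303, minus strand) is the modifier itself. It had 23488, 25883 and 23867 counts in oe-AQP1 samples 1 to 3 and 5989, 6863 and 7821 in oe-NC samples 1 to 3. Scaled to library size, these were 1188, 1177 and 1161 CPM against 305, 376 and 367 CPM. The groups did not overlap: the lowest oe-AQP1 sample was 3.09 times the highest oe-NC sample, and oe-NC sample 1 was the lowest of all. The mean rose from 349 ± 38.4 to 1175 ± 13.6 CPM (SD, n = 3), a 3.38-fold difference (log2FC 1.76, SE 0.06, 95% interval 1.62 to 1.90, FDR = 1.18e-08 by limma-voom). Without oe-NC sample 1 the log2FC was 1.66. Isg15 alone took 0.117% to 0.119% of all counts in oe-AQP1 libraries and 0.0303% to 0.0373% in oe-NC libraries. An annotated long noncoding RNA on the opposite strand, Gm46878, had 4.11 to 9.22 counts in the oe-AQP1 samples and 1.02 to 3.09 in the controls and was not tested. Expected counts of Isg15 were fractions in all 6 samples, by at most 0.22 of a count.

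Measured per length in TPM, counts divided by exon length and then scaled to a fixed total per library, Isg15 was already an abundant transcript in the control cells, at 1728 ± 150 TPM (SD, n = 3), and reached 6051 ± 46.6 TPM in oe-AQP1. Among the 13 ubiquitin and ubiquitin-like genes tested it took place 1 to 3 in oe-NC samples, where the polyubiquitin gene Ubb, at 1442 ± 108 TPM, overlapped it across the 3 samples. In all 3 oe-AQP1 samples it took place 1, with Ubb at 1526 ± 21.97 TPM. Of the 12 other modifiers, 2 passed the FDR threshold and both were higher, among them the autophagy modifier Atg12 (log2FC 0.14), whose call was lost in 8 of 16 alternatives, where 16.0% of all genes tested passed as higher. The lowest log2FC of the 12 was that of Ufm1, at -0.10, which did not pass. Ubd, which encodes the other interferon-inducible tandem modifier FAT10, had at most 5 counts in a sample and was not tested.

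Uba7 (ENSMUSG00000032596, GRCm39 chr9:107852704-107861262, plus strand) encodes the E1 that activates ISG15. It had 2101, 2216 and 2047 counts in oe-AQP1 and 483, 421 and 470 in oe-NC. In CPM, the 3 oe-AQP1 samples had 106, 101 and 99.6 and the 3 oe-NC samples 24.6, 23.0 and 22.05. All oe-AQP1 samples lay above all oe-NC samples, by at least 4.05 times, and oe-NC sample 1, lowest for Isg15, was the highest control here. The 4.40-fold difference had a log2FC of 2.14 (SE 0.06, 95% interval 2.01 to 2.27, FDR = 1.18e-09 by limma-voom). The nonsense-mediated decay locus Gm20661, annotated on the same strand within Uba7, had 10.6 to 18.5 counts in the oe-AQP1 samples and 0 to 2.03 in the controls.

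Compared per length with the E1 enzymes of ubiquitin and its relatives, Uba7 was place 10 of 10 in every oe-NC sample, at 13.5 ± 1.11 TPM, and place 4 of 10 in every oe-AQP1 sample, at 61.5 ± 1.86 TPM. In the order of means it thereby stood next to Uba3, the catalytic part of the NEDD8 E1, at 59.6 TPM, and the samples of the 2 genes overlapped. Of the other 9 genes for E1 enzymes, none passed as higher and 1 as lower, the ubiquitin E1 Uba1 (log2FC -0.26, FDR = 0.000188 by limma-voom), where 16.6% of all genes tested passed as lower. The highest log2FC of the 9 was that of Nae1, the partner of Uba3, at 0.08, and it did not pass. Uba6, the E1 shared by ubiquitin and FAT10, was at -0.15 and did not pass.

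Ube2l6 (ENSMUSG00000027078, GRCm39 chr2:84628630-84640783, plus strand), the E2 that carries activated ISG15, showed the widest gap. It had 1113, 1300 and 1131 counts in oe-AQP1 and 68, 59 and 81 in oe-NC. These were 56.3, 59.1 and 55.0 CPM against 3.46, 3.23 and 3.80 CPM. The lowest oe-AQP1 sample stood 14.5 times above the highest oe-NC sample. The 16.1-fold difference (log2FC 4.01, SE 0.11, 95% interval 3.76 to 4.25, FDR = 1.18e-09 by limma-voom) was place 52 of the 15522 genes tested by log2FC, against place 221 for Herc6, 228 for Uba7, 329 for Isg15 and 335 for Usp18. Of the 3 annotated genes that overlap Ube2l6, each had at most 3 counts in any sample.

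Its nearest relative Ube2l3 (UBCH7), an E2 of ubiquitin, had a log2FC of 0.05 and did not pass (FDR = 0.572 by limma-voom). Per length, Ube2l3 remained the higher of the pair in both groups: Ube2l6 had 4.84 ± 0.38 TPM in oe-NC and 81.6 ± 3.05 TPM in oe-AQP1, whereas Ube2l3 had 168 and 180 TPM. Ube2e1, another E2 whose deposited GO annotation names ISG15, had 1978 to 2116 counts in the oe-AQP1 samples and 1157 to 1498 in the controls, with fractional counts. Its log2FC was 0.58 (SE 0.06, FDR = 7.70e-05 by limma-voom), past the FDR threshold but not the fold threshold, and its neighbor in that annotation, Ube2e2, was at -0.01 and did not pass. Of the 9 genes so annotated, 6 were tested, and Herc6 was not among the 9.

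Herc6 (ENSMUSG00000029798, GRCm39 chr6:57557932-57642597, plus strand) encodes the ligase that takes the place of human HERC5 in the mouse. It had 3942, 4437 and 4372 counts in oe-AQP1 and 827, 831 and 1033 in oe-NC. Its CPM were 199, 202 and 213 against 42.1, 45.5 and 48.5, and the nearest samples of the groups were 4.11 times apart. The fold difference was 4.51 (log2FC 2.17, SE 0.06, 95% interval 2.05 to 2.30, FDR = 7.17e-10 by limma-voom). Expected counts of Herc6 were fractions in all 6 samples, by at most 0.42 of a count, and the long noncoding RNA Gm45193 on the same strand had 41.6 to 80.4 counts in the oe-AQP1 samples and 10.4 to 18.2 in the controls. A further noncoding gene on the opposite strand (ENSMUSG00000122456) had 9.26 to 18.3 against 1.03 to 4.26 counts.

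Of the 5 HERC genes tested, Herc6 alone passed both thresholds. Of the other 4, none passed the FDR threshold as higher and 2 passed as lower (16.6% of all genes tested), the large HERC proteins' genes Herc1 (log2FC -0.25) and Herc2 (log2FC -0.42). Herc4 had the highest log2FC of the 4, at 0.17, and did not pass (FDR = 0.0641 by limma-voom). Per length, Herc6 had 16.8 ± 0.77 TPM in oe-NC, place 2 of 5 in every sample and next to Herc2, and 79.0 ± 3.02 TPM in oe-AQP1, place 1 of 5.

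Usp18 (ENSMUSG00000030107, GRCm39 chr6:121222848-121247877, plus strand) encodes the protease that cleaves ISG15 from its targets. The counts were 9046, 10114 and 9441 in oe-AQP1 and 2753, 2464 and 2908 in oe-NC. The samples hardly varied within a group, at 458, 460 and 459 CPM against 140, 135 and 136 CPM. With the smallest SE of the 5 genes, its 3.35-fold difference had a log2FC of 1.74 (SE 0.03, 95% interval 1.67 to 1.82, FDR = 1.05e-10 by limma-voom). Its level per length went from 164 ± 7.54 to 569 ± 3.99 TPM, the highest of the 8 ligases and proteases for ISG15 tested in both groups.

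The 7 other ligases and proteases reported for ISG15 had a median log2FC of 0.05. Of these, 2 passed the FDR threshold as higher (16.0% of all genes tested), 1 as lower and 4 did not pass, and none passed the fold threshold. Trim25, a ligase of both ubiquitin and ISG15, had 6964 to 7772 counts in oe-AQP1 against 3457 to 4097 in oe-NC (log2FC 0.88, SE 0.03), and the groups did not overlap. The proteases Usp16 (0.21) and Usp5 (-0.24) had small log2FC that passed. Usp13 had at most 1 count in a sample and was not tested.

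**Figure D2:**
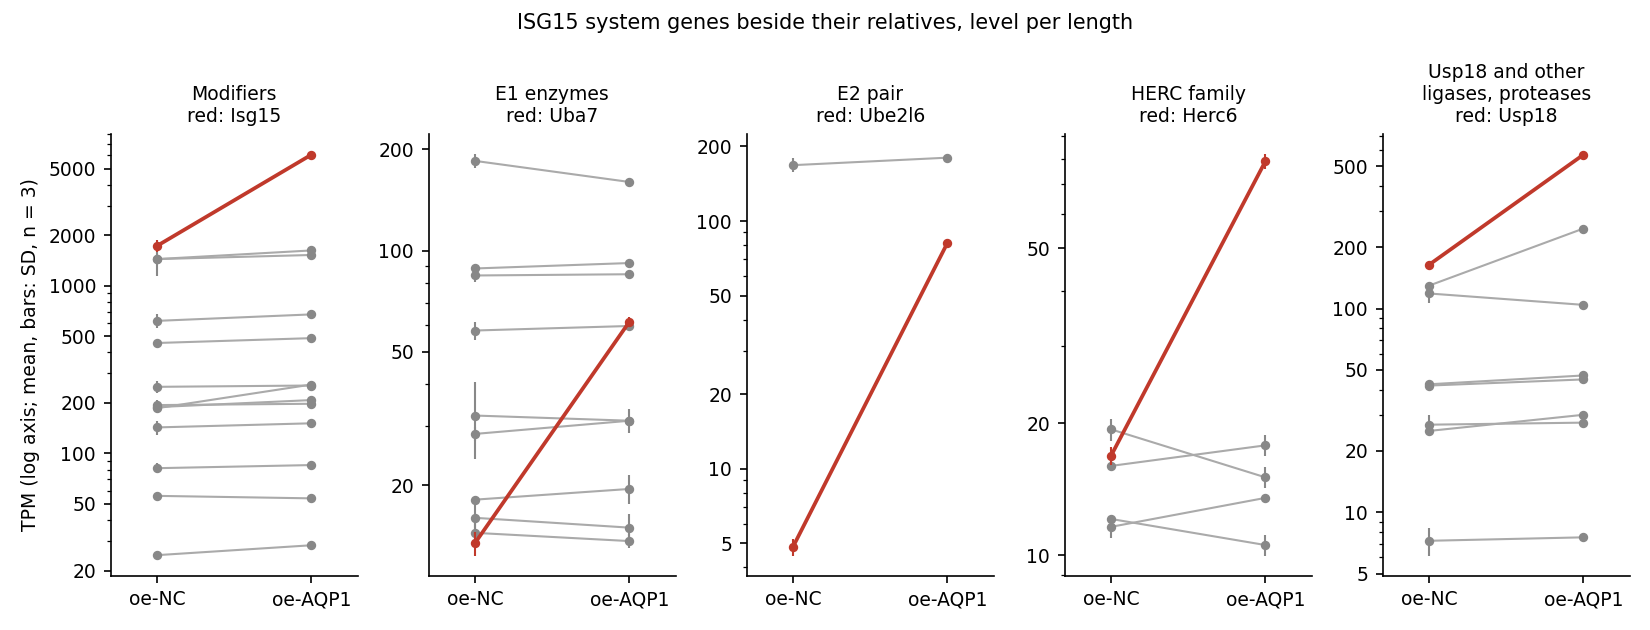
Mean TPM (log axis, bars SD, n = 3) in oe-NC and oe-AQP1 cells of each gene of the ISG15 system (red) and of its relatives (grey): modifiers, E1 enzymes, the E2 pair, the HERC family and the ligases and proteases for ISG15. Uba7 moved from place 10 of 10 to place 4 of 10 among E1 enzymes and Herc6 from place 2 to place 1 of 5, while Ube2l6 remained under Ube2l3.

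For each of the 5 genes, an exact two-sided permutation test of the CPM over samples gave p = 0.1, the smallest that 3 against 3 samples allow. Exon lengths used for TPM joined all annotated exons of a gene, 782 bases for Isg15 and 10434 for Herc6, so a level per length is low where the cells use shorter transcripts.

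Whether the genes moved by different amounts was examined within libraries, as the log2 ratio of CPM between members, for the 10 pairs. In 8 of the 10 pairs the groups did not overlap. Each of these had exact permutation p = 0.1, the smallest unadjusted value possible, and 0.125 adjusted over the 10 pairs. The pairs share genes and so are not independent, and every pair with Ube2l6 was among the 8. How often ratios of other gene pairs separate the groups was not examined. The ratio of Ube2l6 to Isg15 was higher in oe-AQP1 by 2.23 on the log2 scale (SE 0.12). Against Uba7, Herc6 and Usp18, Ube2l6 was higher by 1.85, 1.81 and 2.24. The E1 and the E3 gained on the modifier by much less, Uba7 by 0.38 (SE 0.14) and Herc6 by 0.42 (SE 0.07). Without oe-NC sample 1, in which Isg15 was lowest, these differences were 0.51 and 0.46, and that of Ube2l6 was 2.32.

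The other 2 pairs overlapped between groups. The ratio of Usp18 to Isg15 differed by -0.02 (SE 0.11, exact permutation p = 1), and without oe-NC sample 1 by 0.10, so its direction depended on that sample. The ratio of Herc6 to Uba7 differed by 0.04 (SE 0.12, exact permutation p = 0.8, adjusted 0.889).

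The same ratios on the TPM scale estimate the amount of modifier transcript per enzyme transcript, with the joined exon lengths taken as transcript lengths. For Ube2l6 there were 75.6, 71.3 and 75.6 Isg15 transcripts per Ube2l6 transcript in oe-AQP1 and 316, 417 and 346 in oe-NC. Per Uba7 transcript there were 98.5 ± 2.43 (SD, n = 3) in oe-AQP1, with 95.7 the lowest, against 106, 140 and 142. Per Herc6 transcript there were 79.5, 77.8 and 72.8 against 96.7, 110 and 101. By this estimate the mean was 74.2 to 98.5 Isg15 transcripts for each of the 3 conjugating enzymes in oe-AQP1. In oe-NC the E2 was the scarcest of them in every sample. The size of each ratio, and its order among the enzymes, depends on these lengths, which were the same for both groups. Per Usp18 transcript there were 10.8, 10.6 and 10.5 in oe-AQP1 and 9.04, 11.6 and 11.2 in oe-NC, and these overlapped.

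**Figure D3:**
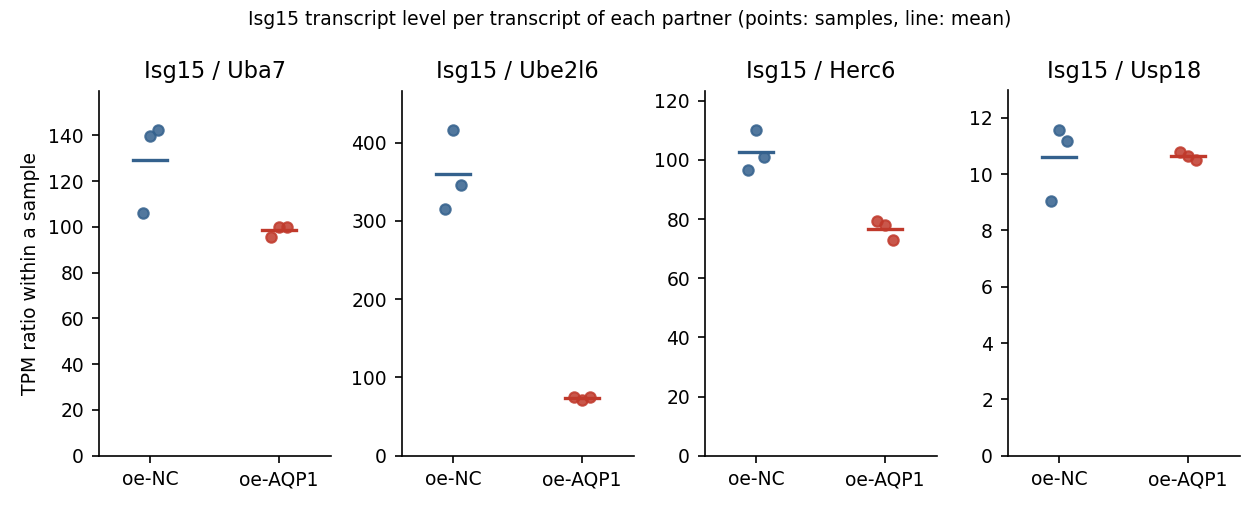
Isg15 TPM divided by the TPM of Uba7, Ube2l6, Herc6 and Usp18 in each sample (points) with group means (lines), on linear axes from 0. The Ube2l6 ratio is 71.3 to 75.6 in oe-AQP1 against 316 to 417 in the controls, while the Usp18 ratios of the groups overlap.

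The genes around the conjugation system were counted in the same fit, in which 16.0% of all genes tested passed the FDR threshold as higher, 16.6% as lower, and 4.39% passed both thresholds as higher. Of 7 genes for the type I interferon receptor and the ISGF3 complex, which drives Isg15 and on which USP18 acts, 4 passed as higher, 1 as lower and 2 did not pass. Of the 4, 2 passed the fold threshold too, among them the transcription factor Stat2 (log2FC 1.97, SE 0.04), and its partner Irf9 rose by 0.68. The receptor chain Ifnar2, to which USP18 binds, was at 0.27, and the kinase Jak1 was at -0.11 (FDR = 0.0457 by limma-voom), a call that was lost in 10 of 16 alternatives. Ifnar1 and Tyk2 did not pass.

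Among 13 tested genes whose proteins have been reported as ISG15 substrates, 5 passed both thresholds as higher, 2 passed the FDR threshold as lower and 6 did not pass, with a median log2FC of 0.03. Of the lower genes, Jak1 lost its call in 10 of 16 alternatives. The 5 higher genes included Mx1, an antiviral GTPase (log2FC 5.91), Ifih1, which encodes the RNA sensor MDA5 (1.96), Rigi, the sensor RIG-I (1.41), and Eif2ak2, the kinase PKR (1.20), and each is known as interferon-inducible. For the receptor of secreted ISG15, Itgb2 was at 0.09 and did not pass (FDR = 0.524 by limma-voom), and Itgal, with 1 to 4 counts in a sample, was not tested.

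Conjugation systems of other ubiquitin-like proteins were counted for comparison, against the same shares of 16.0% and 16.6% over all genes tested. Of 17 SUMO genes, 4 passed the FDR threshold as higher and none as lower, and the lowest log2FC was that of Pias3, at -0.15. Of 14 NEDD8 genes, 1 passed as higher and 1 as lower, from -0.35 (Dcun1d2) to 0.19 (Senp8). Of 8 UFM1 genes, none passed as higher and 4 as lower, and the lowest log2FC was that of Ufc1, at -0.34. For FAT10, Uba6 and its E2 Ube2z (log2FC 0.01) did not pass. No gene of these lists passed the fold threshold. All lists together held 94 tested genes that were not members: 21 passed the FDR threshold as higher, 13 as lower, and 6 passed the fold threshold as well, with a median log2FC of 0.00866.

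**Figure D4:**
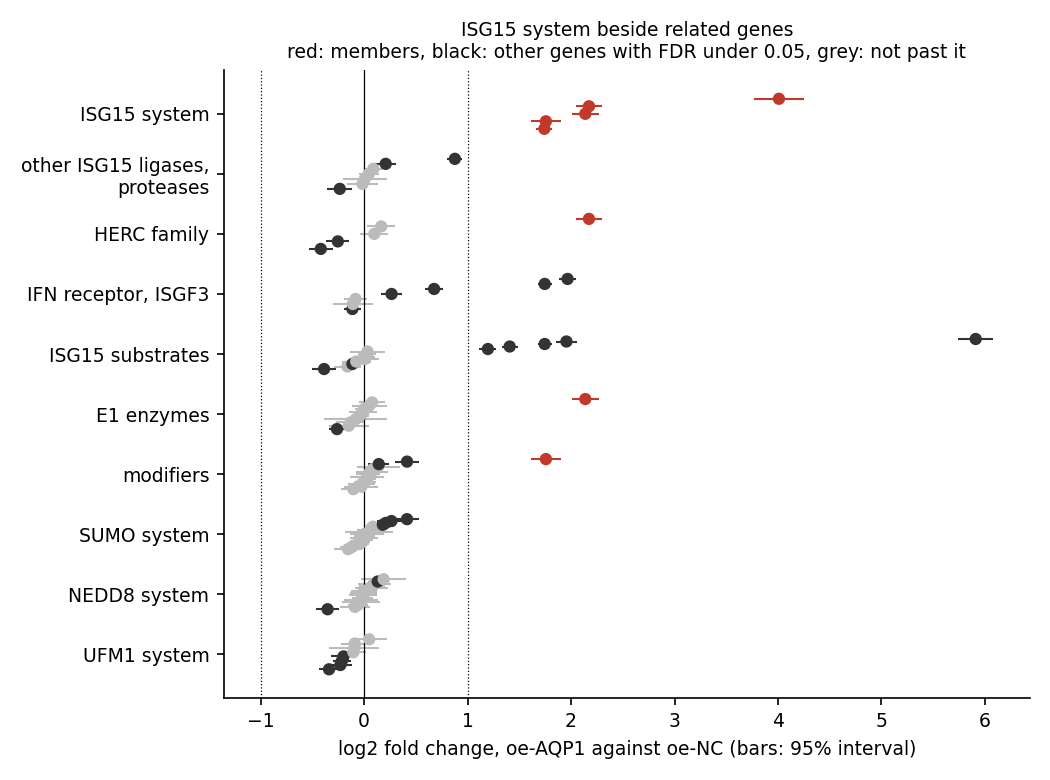
Log2FC of oe-AQP1 against oe-NC, with 95% intervals, for the 5 genes of the ISG15 system (red) and related genes (black, FDR under 0.05; grey, not past it), with dotted lines at the fold threshold. The 5 genes lie between 1.74 and 4.01, above each of their relatives among ligases and proteases, of which Trim25 at 0.88 is the highest. They are not set apart from every list: Mx1, at 5.91, lies above all 5. Stat2 (1.97) and Ifih1 (1.96) lie above Isg15 and Usp18.

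The nearest tested protein-coding genes on both sides of the 5 genes were read beside them. Of the 10 neighbors, 4 passed the FDR threshold as higher (16.0% of all genes tested), 2 as lower (16.6%) and 4 did not pass, and none passed the fold threshold. Next to Isg15, Agrn, a minus-strand gene whose start lies 1869 bases away, was at -0.33. Perm1, 15022 bases away, was at 0.76, on 36 to 74 counts. Next to Uba7, Traip was at 0.42, and Inka1, whose end overlaps Uba7 on the opposite strand, was at -0.09 and did not pass. Beside Ube2l6, with its log2FC of 4.01, Serping1, the gene of complement C1 inhibitor, was at 0.91 (SE 0.09) and Timm10 at 0.17, which did not pass. Ppm1k, 45440 bases from Herc6, was at 0.98 (SE 0.11), just under the fold threshold, and reached 1.04 without oe-AQP1 sample 2 and 1.05 without oe-NC sample 3; Pyurf on the other side was at -0.10. Next to Usp18, Slc6a13 was at -0.52 and Tuba8, at 0.27, did not pass. In each of the 5 loci the member had the highest log2FC of the 3 genes. With the members at places 52 to 335 of 15522 by log2FC, this was likely for almost any neighbor. Whether the differences ran along the chromosome was not tested.

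**Figure D5:**
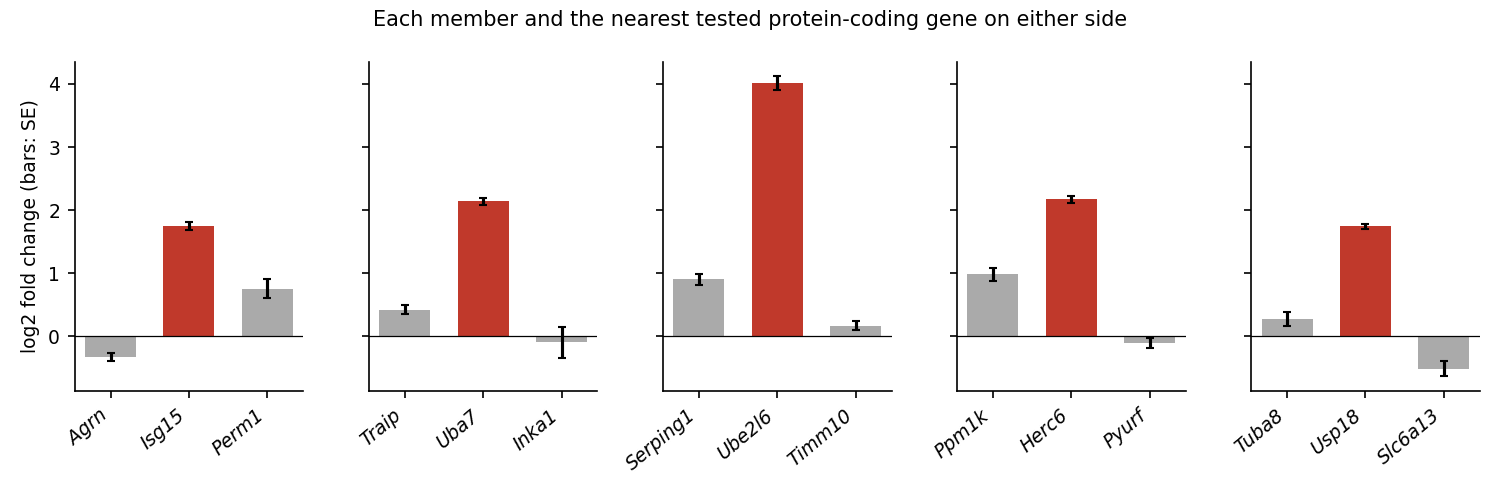
Log2FC (bars, SE) of each gene of the ISG15 system and of the nearest tested protein-coding gene on either side. The member is the highest of the 3 in each locus, which its high place among all genes tested made likely. The neighbors lie between -0.52 (Slc6a13) and 0.98 (Ppm1k).

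Finally, the 3 tested genes nearest to each member were listed by the Euclidean distance between the 6 log2 CPM values, each centered on its own mean, among genes with a mean of at least 10 counts. For Isg15 they were Gm20559 (distance 0.0937), Ifi44 (0.0949) and Trim34a (0.139). For Uba7 they were Spats2l (0.0622), Parp12 (0.0862) and Oasl1 (0.148). Ube2l6, at the larger fold change, was nearest to Rsad2 (0.163), Ly6a (0.188) and Ifit2 (0.205). Herc6 was nearest to Dtx3l (0.101), Gbp9 (0.116) and Samd9l (0.129), and 2 of the 3 nearest to Usp18 were H2-T22 (0.0597) and 9930111J21Rik2 (0.0752). No member was among the 3 nearest of another, and with 6 samples in 2 groups the distances reflect mainly the size of the group difference.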

How the data were processed

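RNA-seq libraries were made with the Illumina TruSeq kit from total RNA of 3 oe-AQP1 and 3 oe-NC RENCA samples. The authors deposited unscaled expected counts (estimated counts, which can be fractions where reads are shared among genes) per gene for 6 samples, with GO annotation and 2 columns of group means that were left aside. The study's methods name GRCm39 as the alignment genome, whereas the submitters' processing notes name GRCm38 and mm10 beside fastp, HISAT2, featureCounts and Subread without versions, so the build of the counts is not settled here. Of 78298 gene identifiers, 78168 matched GENCODE M39, from which came the GRCm39 gene positions and exon lengths. Groups and sample numbers came from the sample titles.

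Counts were rounded, filtered by filterByExpr, scaled by TMM and fitted with limma-voom (limma 3.58.1, edgeR 4.0.16, R 4.3.3) with group as the only term, the test, scaling and thresholds of the study (Benjamini-Hochberg FDR under 0.05 and absolute log2FC above 1), over 15522 genes. The study then left interferon-stimulated and viral defense genes out of its list of changed genes. Its stated aim was to limit transfection artifacts, and it kept inflammatory mediators relevant to cancer. No gene was left out here. The SD and SE hold the spread between samples and counting error together. Ratios used log2 CPM with a prior count of 2. TPM were computed here from the deposited counts. The statistics were tested on simulated counts. The fit was repeated with edgeR's quasi-likelihood test, with DESeq2 (1.42.0), and with quality weights, other scalings, filters, rounding, a replicate block and leaving out each sample.

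The members and gene lists were chosen with earlier results of these data known. Genes named were the 5 members, Aqp1, every called, highest and lowest gene of each list, the nearest tested protein-coding neighbors and the 3 genes nearest to each member. A few genes that this rule takes are not reported here. Other genes that are named (Ubb, Atg12, Usp16, Herc1, Uba3, Dcun1d5, Cdk5rap3, Irf9, Ifnar1, Ifnar2, Tyk2, Ube2e1, genes overlapping a member, untested list genes and cell type markers) were chosen after their values were seen.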

Additional observations from a re-analysis of the deposited data

How the results depend on the processing

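All 5 genes passed in each of the 17 alternatives. The alternative with no fold threshold reused the main fit, and the others applied both thresholds. Leaving out each sample gave 5 to 5 of the 5 genes. Their log2FC then ranged from 1.66 to 1.81 for Isg15, 2.10 to 2.18 for Uba7, 3.95 to 4.07 for Ube2l6, 2.12 to 2.22 for Herc6 and 1.73 to 1.76 for Usp18, and the highest FDR of any alternative was 7.78e-07. Over all genes, 812 passed, 765 to 891 when a sample was left out, 482 (416 higher and 66 lower) when each sample had to reach 10 counts, where fewer genes were tested, and 5050 (2481 higher and 2569 lower) with no fold threshold. Of the list genes, 6 passed, 6 to 7 when a sample was left out and 34 (21 higher and 13 lower) with no fold threshold. For the genes outside the system, 1502 values kept their call at both thresholds together, and 2, both of Ppm1k, newly passed them. Only 6 of these 94 genes were called in the main fit, so most of the values are genes that stayed uncalled. A change of sign was not counted for genes not past the FDR threshold. At the FDR threshold alone, 7 of the 39 genes past it (members included) lost it in at least 1 alternative and 16 of the 60 others gained it. Jak1 lost it in 10 of 16 alternatives (FDR 0.00126 to 0.184), Atg12 in 8 (0.0174 to 0.181), the NEDD8 gene Dcun1d5 in 7 and the UFM1 gene Cdk5rap3 in 2, so the FDR counts of these lists vary by setting. No sign of pairing by sample number was seen: deviations of equally numbered samples correlated at 0.009, -0.004 and -0.068. Such values cannot show whether the samples were handled in pairs. With the number as a replicate block, 786 genes, 5 members and 6 list genes passed. The ratio of Usp18 to Isg15 turned from -0.02 to 0.10 without oe-NC sample 1, an alternative chosen after seeing the data. The cause of the distance of oe-NC sample 1 from its group was not tested. Depth limits Ube2l6 in oe-NC, at 59 to 81 counts, and the untested genes.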

Other observations

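The 5 genes of the ISG15 system together took 0.200% to 0.201% of all counts in the oe-AQP1 libraries and 0.0511% to 0.0579% in the oe-NC libraries, with the lowest share in oe-NC sample 1. Of the 9 genes whose deposited annotation names ISG15, the 3 that were not tested were Gm7478, Gm9706 and Gm46878.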
